A study of Drosophila melanogaster with 9 samples.

Results

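Drat (CG1600) encodes a protein with an alcohol dehydrogenase domain, and it was followed here together with the enzymes of alcohol, sorbitol, formaldehyde and aldehyde oxidation, 8 genes in all: Drat, Adh, Adhr, Fdh, Sodh-1, Sodh-2, Aldh and Aldh-III. Drat was selected on its signal in these same arrays, where it was high in both hypoxia treatments against normoxia, so its values against normoxia are given as a description with no test. The other 7 genes were taken by name, as enzymes of related reactions, with earlier results of these data known. In the probe annotation 7 of the 8 genes had a probe set, 7 probe sets of the 18769 measured, and Aldh, the mitochondrial enzyme that turns acetaldehyde into acetate, was not analysed here. Sodh-1 and Sodh-2 stand in that annotation as Sodh1 and Sodh2. Adh and Adhr share 2 probe sets, each annotated to both genes, so a signal there cannot be given to one of them.

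RNA came from whole adult flies of the wild type strain Canton-S, 5 to 6 days old, with 25 males and females named for each exposure of 2.5 hours. The control flies (NC) stayed in normoxia in the same room, constant hypoxia (CH) held 1% O2, and intermittent hypoxia (IH) alternated 4 min of 1% O2 with 4 min of 21% O2. Ramps between these levels, the slower one towards 1% O2, came on top of those phases and made each IH cycle longer. Each group had 3 arrays of the Affymetrix Drosophila Genome 2.0 type, which limits the precision of all values below. No label tells whether replicates were separate exposures, so the p-values cover the spread between these arrays, which may be technical.

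Alcohol dehydrogenases move hydrogen from an alcohol to NAD+ and leave an aldehyde or ketone, and aldehyde dehydrogenases carry the aldehyde on to an acid. In the fly, Adh is the main enzyme of ethanol breakdown and is abundant in fat body and gut. Both steps use NAD+ and make NADH, which respiration turns back to NAD+ when oxygen is present. By the RefSeq annotation of Release 6, Adh and Adhr share a locus on chromosome 2L, Fdh and Sodh-2 lie on 3R with 1 protein-coding gene between them, Sodh-1 lies apart from them on 3R, and Drat and Aldh-III lie on 2R with 11 protein-coding genes between them.

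The signal of Drat, a linear intensity, was 13948, 12663 and 10273 on the NC arrays (replicates 1, 2 and 3), 23564, 34723 and 36572 on the CH arrays, and 16603, 28092 and 24609 on the IH arrays. All 3 CH arrays and all 3 IH arrays lay above all 3 NC arrays, while the CH and IH arrays overlapped, since the lowest CH value was below the 2 highest IH values. NC had a mean of 12295 ± 1865 (SD, n = 3 arrays), CH of 31620 ± 7037 and IH of 23101 ± 5891. On the scale of log2(signal + 16), which is used for every fold change here, Drat was higher than NC by 1.35 in CH (standard error 0.27), a fold of 2.54, and by 0.89 in IH (standard error 0.27), a fold of 1.85. Whole-fly RNA does not tell a change in the amount of a tissue from a change of RNA per cell, here and for all genes below. Of all probe sets, 7.13% had every CH array above every NC array and 2.63% had every IH array above every NC array. These contrasts chose the gene, so nothing is read from its place among those probe sets.

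**Figure D1:**
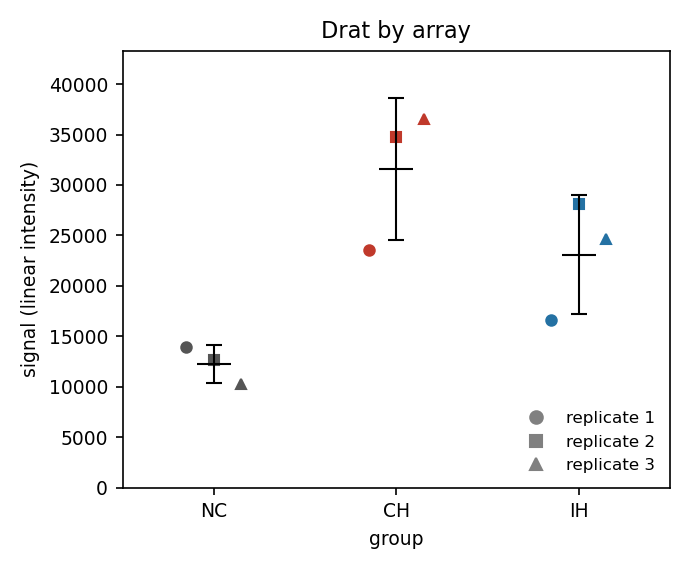
Signal of Drat (linear intensity, vertical axis) on each of the 9 arrays, by group; points are arrays, shaped by replicate number, and bars give the mean and SD of 3 arrays. The NC arrays lie between 10273 and 13948, below the lowest IH array at 16603 and the lowest CH array at 23564, while CH and IH overlap.

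The spread of Drat was wide within each hypoxia group, and in both the replicate 1 array was the lowest. Between arrays of the same replicate number, the CH signal was 1.69, 2.74 and 3.56 times the NC signal for replicates 1, 2 and 3. The same ratio for IH was 1.19, 2.22 and 2.40. Replicate 1 thus had the smallest ratio in both treatments, and within NC it had the highest signal. The CH signal was 1.42, 1.24 and 1.49 times the IH signal of the same number. No label ties same-numbered arrays together, so these ratios are a description only. Taken without the numbers, the CH and IH arrays overlapped. The direct comparison of CH with IH did not itself choose the gene. It uses the same CH and IH values that did, so it is not free of that choice. Its log2 difference was 0.46 (standard error 0.27, 95% interval -0.15 to 1.07), with an adjusted p = 0.999 over all probe sets by limma (unadjusted p = 0.120), so a difference between the treatments was not shown and the interval includes folds from 0.90 to 2.10. Without CH replicate 1 the log2 difference was 0.66, and without IH replicate 1 it was 0.24.

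A technical signal also differed between the groups. The control probe sets for 18S rRNA had a mean log2 signal of 6.88 to 7.40 in NC, of 8.19 to 9.68 in CH and of 7.07 to 10.5 in IH. The IH arrays had the same order for 18S as for Drat, with IH replicate 1 the lowest at 7.07. CH replicate 1, at 8.19, was the lowest CH array for both. NC replicate 3, the lowest NC array for Drat, had the highest 18S in NC at 7.40. IH replicates 2 and 3, at 10.5 and 10.2, lay above every CH array for 18S, while the mean of Drat was higher in CH. The ratio of the 3′ to the 5′ actin control, a sign of RNA length, was 1.94, 1.68 and 1.65 on the replicate 1 arrays of NC, CH and IH and 1.23 to 1.43 on the other 6. The same ratio for the GAPDH control did not set replicate 1 apart, at 1.66, 1.98 and 1.68 on the replicate 1 arrays and 1.35 to 1.82 on the other 6. The part of these signals in the signal of Drat was not tested.

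Of the 6 probe sets for the other measured genes, 0 were called in CH, where 0.0213% of all probe sets were called, and 0 in IH, where 0% were. A call needed 3 things, an adjusted p under 0.05 from limma, a change above 1.5-fold or below 0.67-fold, and every array of the group lying to one side of the other group's mean. At an unadjusted p under 0.05 with the same limits on fold and direction, 0 of the 6 passed in CH and 0 in IH, against 3.87% and 3.14% of all probe sets. In CH 0 of the 6 had arrays that did not overlap with NC, against 12.5% of all probe sets. Of the 6 log2 fold changes, 5 were below 0 in CH and 5 in IH, with medians of -0.07 in CH and -0.15 in IH beside 0.01 and -0.02 over all probe sets. Between CH and IH, 0 of the 7 probe sets including Drat were called (0.0373% of all), and 0 passed at an unadjusted p with the limits (4.08% of all).

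Adh, which oxidizes ethanol and other small alcohols, and Adhr, its neighbour in the same transcription unit, were read by 2 shared probe sets. On the probe set with the higher mean signal, the values were 76489, 95159 and 98282 in NC, 75974, 95683 and 105772 in CH, and 62416, 109576 and 112139 in IH. Here the groups overlapped widely and the replicate 1 array was the lowest of its group in all 3 groups. Its log2 fold change was 0.035 in CH (95% interval -0.58 to 0.65) and 0.033 in IH (-0.58 to 0.64), with an adjusted p of 1.00 in both from limma. These intervals reach from a fold of 0.67 to 1.56 in either treatment.

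The other probe set for Adh and Adhr had signals of 587, 637 and 615 in NC, 537, 605 and 494 in CH, and 347, 546 and 430 in IH. The 3 IH arrays lay below the 3 NC arrays, and the CH arrays overlapped with both. In IH the log2 fold change of this probe set was -0.48 (95% interval -0.93 to -0.04, standard error 0.19), with an adjusted p = 1.00 by limma (unadjusted p = 0.0364), so it did not pass. In CH it was -0.17 (standard error 0.19, adjusted p = 1.00 from limma). The intervals of both probe sets in IH overlap, IH replicate 1 was the lowest IH array on both, and whether the 2 differ was not tested.

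**Figure D2:**
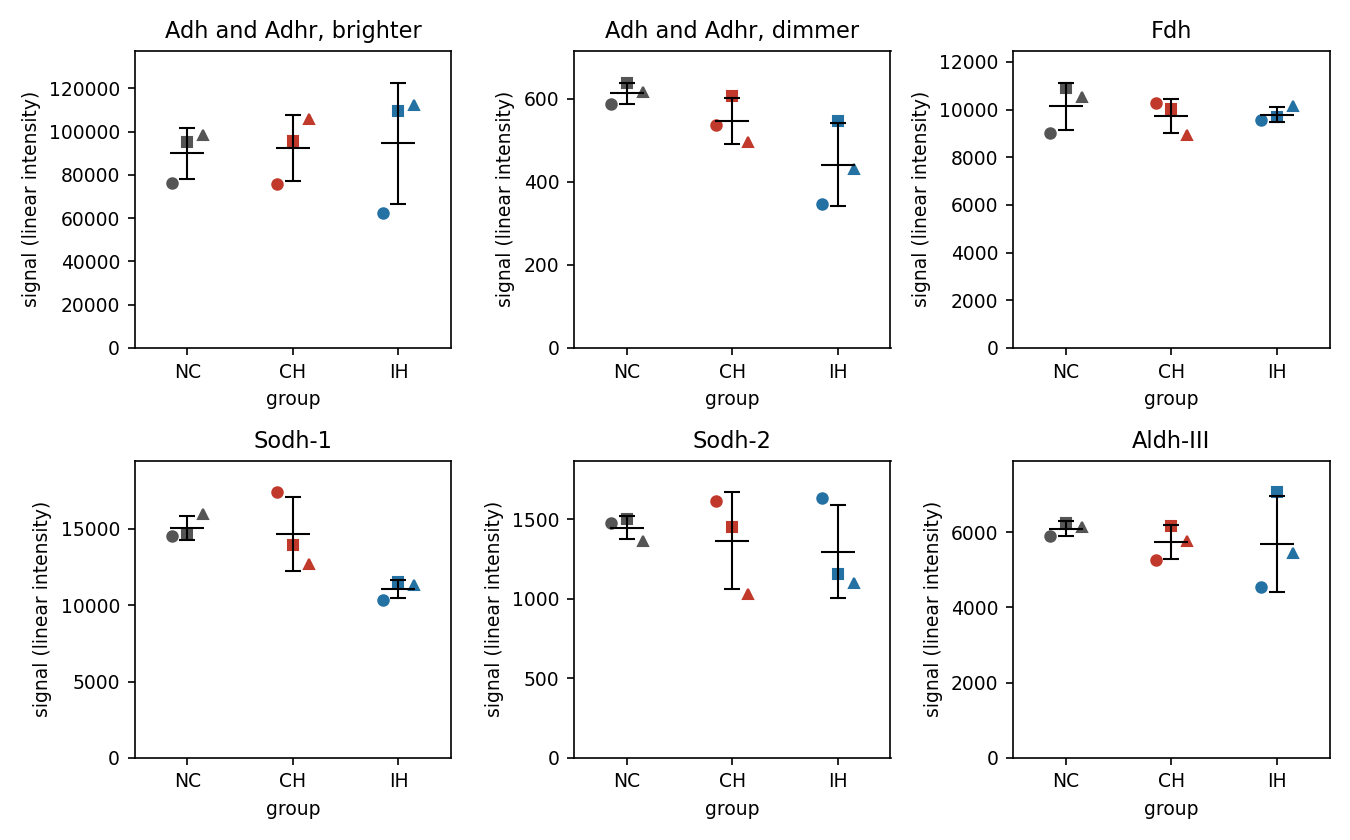
Signals (linear intensity, vertical axes from 0) of the 6 probe sets for members other than Drat on the 9 arrays; point shapes give replicate numbers 1 (circle), 2 (square) and 3 (triangle), and bars the mean and SD of 3 arrays. The IH arrays lie below the NC arrays for Sodh-1 and for the dimmer Adh and Adhr probe set, and the groups overlap in the other 4 panels.

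Sodh-1 and Sodh-2 encode sorbitol dehydrogenases, which oxidize sorbitol to fructose in the polyol pathway. The signal of Sodh-1 was 14526, 14656 and 15958 in NC, 17386, 13968 and 12716 in CH, and 10356, 11522 and 11309 in IH. The IH arrays were lower than every NC array and every CH array, and the CH arrays lay on both sides of the NC arrays. NC had a mean of 15047 ± 792 (SD, n = 3 arrays), CH of 14690 ± 2417 and IH of 11063 ± 621. For IH the log2 fold change of Sodh-1 was -0.44 (95% interval -0.83 to -0.06, standard error 0.17), with an adjusted p = 1.00 by limma (unadjusted p = 0.0291), so Sodh-1 did not pass over all probe sets. In CH it was -0.05 (95% interval -0.43 to 0.34). Against IH, CH was higher by 0.40 (standard error 0.17, limma adjusted p = 0.999, unadjusted p = 0.0447), and its arrays did not overlap with the IH arrays, as was so in this direction for 5.07% of all probe sets. That log2 difference was 0.22 without the 3 replicate 1 arrays, a setting chosen after seeing the data, and 0.27 with each array centred on its median (unadjusted p = 0.243 from limma). Its unadjusted p was under 0.05 in 8 of the 19 alternatives and not in 11.

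In all, 2 of the 6 probe sets, for Sodh-1 and the dimmer one for Adh and Adhr, had every IH array below every NC array, against 4.03% of all probe sets. The same 2 were lower in IH at an unadjusted p under 0.05 whatever the fold, against 2.23% of all probe sets. This count of 2 fell to 0 when NC replicate 1, 2 or 3, IH replicate 1 or IH replicate 3 was left out, without the 3 replicate 1 arrays together, and with each array centred on its median, and it was 0 in 7, 1 in 3 and 2 in 9 of the 19 alternatives. Their fold changes of 0.735 and 0.715 did not reach the limit of 0.67.

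Sodh-2 had signals of 1473, 1501 and 1364 in NC, 1614, 1451 and 1028 in CH, and 1633, 1153 and 1099 in IH. Replicate 1 was the highest CH array and the highest IH array, and the 3 groups overlapped. The log2 fold change was -0.11 in CH (95% interval -0.63 to 0.42) and -0.18 in IH (-0.70 to 0.35), with an adjusted p of 1.00 in both from limma. Whether Sodh-1 and Sodh-2 differ in their response to IH was not tested.

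Fdh is the class III alcohol dehydrogenase of the fly, which oxidizes formaldehyde bound to glutathione and also reduces S-nitrosoglutathione. It was the steadiest of the members, with signals of 9013, 10892 and 10510 in NC, 10262, 10010 and 8928 in CH, and 9547, 9694 and 10133 in IH. Its highest signal was 1.22 times its lowest, where the median of this ratio was 1.70 over the 10263 probe sets with a mean signal of at least 500, and 3.61% of those had a smaller ratio. The groups overlapped, and the log2 fold change was -0.06 in CH (95% interval -0.41 to 0.29) and -0.05 in IH (-0.39 to 0.30). The interval in either treatment lies within folds of 0.755 to 1.23, so it holds no fold as large as 1.5.

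Aldh-III belongs to the family of fatty aldehyde dehydrogenases, which act on long-chain aldehydes. Its signals were 5891, 6254 and 6153 in NC, 5265, 6174 and 5773 in CH, and 4546, 7059 and 5461 in IH. The IH arrays held both the lowest and the highest value of the 9, and the groups overlapped. The log2 fold change was -0.09 in CH (95% interval -0.53 to 0.35) and -0.12 in IH (-0.56 to 0.31), with an adjusted p of 1.00 in both from limma. Drat, on the same chromosome arm, had folds of 2.54 and 1.85 in these comparisons.

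**Figure D3:**
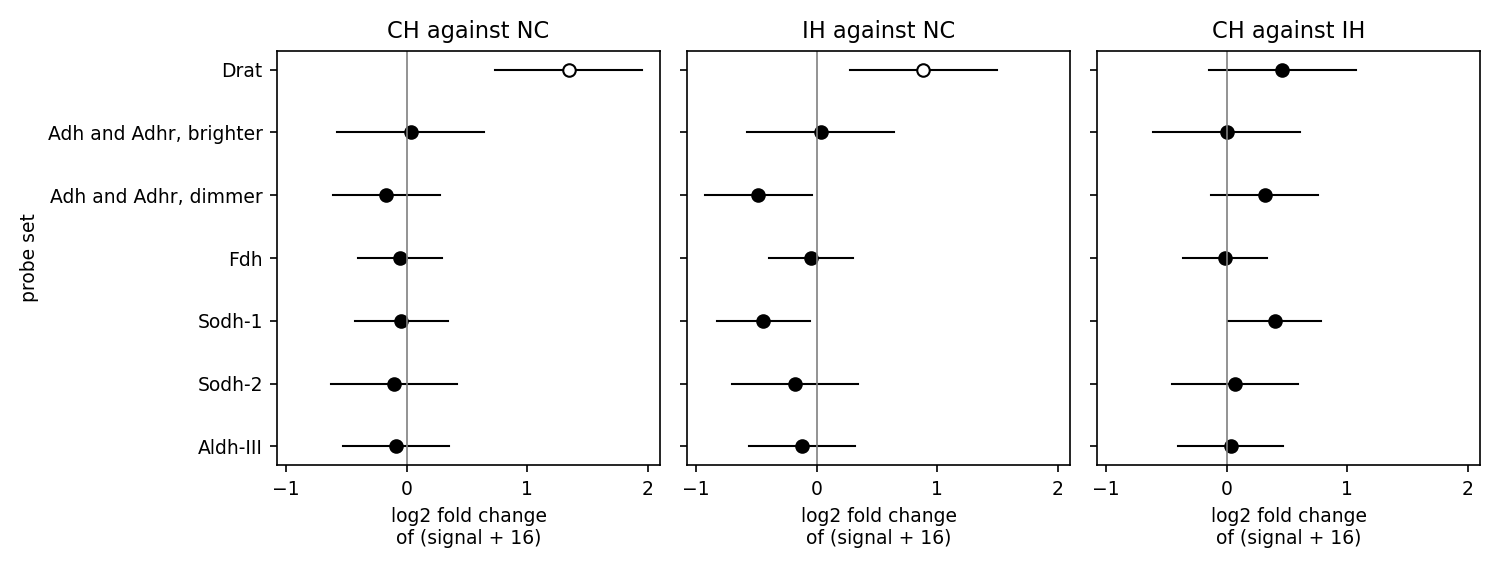
Log2 fold changes of (signal + 16) (horizontal axes) for the 7 member probe sets for both hypoxia treatments against NC and for CH set against IH, 1 panel each; points are estimates, lines their 95% intervals, and open points are the contrasts that chose Drat and were not tested. Apart from Drat, the intervals that leave out 0 are those of Sodh-1 and the dimmer Adh and Adhr probe set in IH against NC and of Sodh-1 in CH against IH, none of which passed over all probe sets.

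As a description over arrays that share groups and scaling, the Pearson correlation of log2 signal with Drat was 0.35 for the brighter Adh and Adhr probe set, 0.08 for Aldh-III, -0.19 for the dimmer Adh and Adhr probe set, -0.31 for Sodh-1, -0.39 for Fdh and -0.50 for Sodh-2. The highest of them, 0.35, belongs to the probe set that was lowest on replicate 1 in each group.

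Enzymes that carry out neighbouring reactions were followed as 5 lists, with 37 genes measured in all. Some listed genes were not analysed, and the counts below leave them out. Of the 37, 0 were called higher and 0 lower by limma in CH, in IH and between CH and IH. Of all probe sets, 0.0213%, 0% and 0.0373% were called in these comparisons. At an unadjusted p under 0.05 with the limits on fold and direction, 0 passed in CH, 0 in IH and 1 between CH and IH, which was AOX2. The shares of all probe sets that passed were 3.87%, 3.14% and 4.08%. Arrays did not overlap for 2 genes higher and 1 lower than NC in CH, against 12.5% of all probe sets in either direction. In IH this held for 0 higher and 1 lower, against 6.67%, and between CH and IH for 1 higher and 2 lower in CH, against 7.86%. The lists' medians were between -0.07 and 0.04 in CH and between -0.07 and 0.04 in IH.

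Of 12 other enzymes that oxidize aldehydes, 5 had a log2 fold change above 0 in CH and 4 in IH. For AOX2, an aldehyde oxidase, the mean signals were 234 ± 48.8 (SD of 3 arrays, NC), 316 ± 164 (CH) and 148 ± 29.9 (IH). Its log2 difference between CH and IH was 0.92 (standard error 0.34, limma adjusted p = 0.935, unadjusted p = 0.0265), and its IH arrays lay below both its NC and its CH arrays. CG6661, an aldehyde dehydrogenase family gene, had log2 fold changes of 0.33 in CH, where its arrays lay above the NC arrays, and -0.11 in IH, and ry, xanthine dehydrogenase, had -0.14 and -0.43. Of 7 aldo-keto reductases, enzymes that turn aldehydes into alcohols, 2 lay above 0 in CH and 2 in IH, and the largest difference of these was that of CG3397 in IH (log2 fold change -0.52, unadjusted p = 0.105 from limma). CG12766 had log2 fold changes of -0.15 in CH and 0.17 in IH, and CG9436 had -0.14 and -0.10.

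Of 9 other short-chain and medium-chain dehydrogenases, 2 lay above 0 in CH and 7 in IH. Antdh, an antennal dehydrogenase, had log2 fold changes of -0.50 in CH and 0.08 in IH, and its CH arrays lay below its IH arrays. Fbp2, a fat body protein related to Adh in sequence, had -0.63 in CH and 0.70 in IH (standard error 0.79 in each), at signals of 178 ± 135 in NC, 98.7 ± 87.7 in CH and 248 ± 141 in IH. For scu, a mitochondrial hydroxyacyl-CoA dehydrogenase, the CH arrays lay below both the NC and the IH arrays, at log2 fold changes of -0.07 in CH and 0.10 in IH.

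Of 8 central dehydrogenases listed, which use NAD+ or NADP+, 4 were measured, Men, Mdh1, Gpdh1 and Idh. Of these 4, 3 lay above 0 in CH and 2 in IH. The listed genes ImpL3, a lactate dehydrogenase, Mdh2, Zw and Pgd were not analysed here. Men, malic enzyme, had 0.17 in CH and 0.10 in IH, and Mdh1, a malate dehydrogenase, had 0.0052 and -0.08. Gpdh1, a glycerol-3-phosphate dehydrogenase, had -0.10 in CH and 0.00 in IH. Of the 5 partners in acetate, peroxide and glutathione metabolism, 3 lay above 0 in CH and 4 in IH. AcCoAS, which turns acetate into acetyl-CoA, had 0.05 in CH and 0.04 in IH. CG4390, the hydrolase that follows Fdh in formaldehyde breakdown, had -0.05 and 0.03. Gclc, which starts glutathione synthesis, had 0.20 in CH (standard error 0.15, unadjusted p = 0.234 from limma), with its CH arrays above its NC arrays, and 0.06 in IH.

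**Figure D4:**
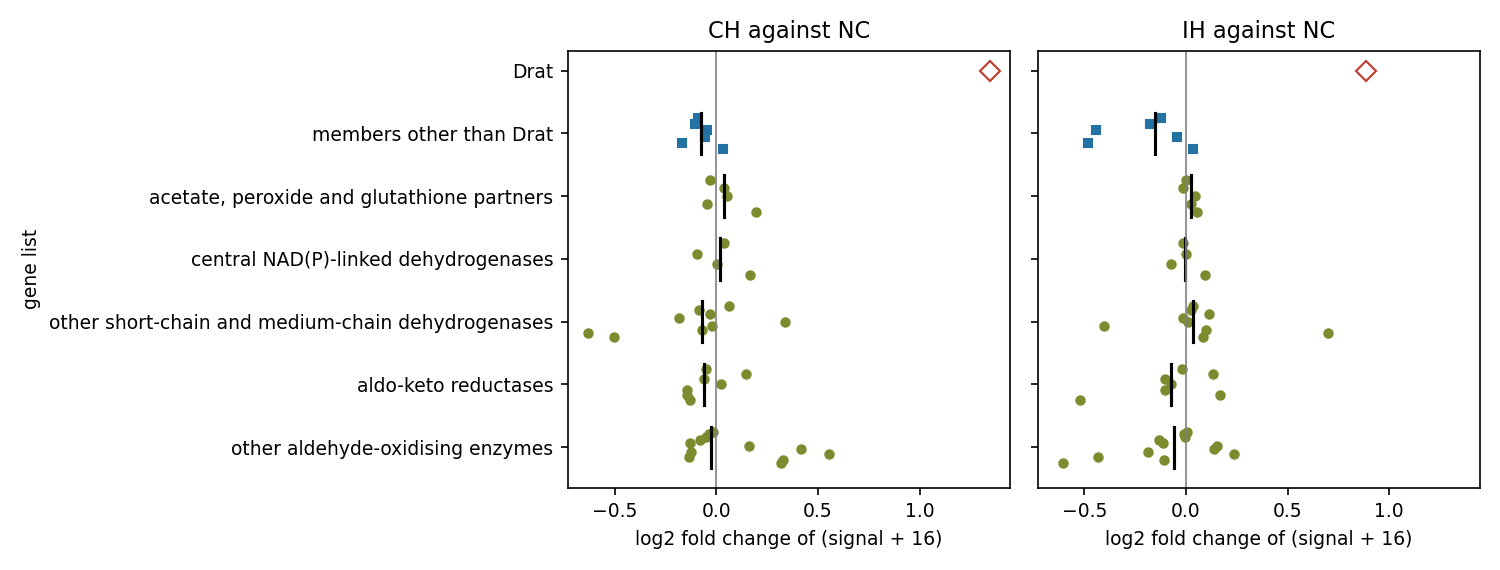
Log2 fold changes of (signal + 16) (horizontal axes) in CH and in IH against NC, with 1 point per gene of the 5 related enzyme lists (37 genes), the 6 probe sets of members other than Drat (squares) and Drat (open diamond, chosen on these contrasts); vertical bars are medians. The lists' medians lie between -0.07 and 0.04 in both panels, and the members other than Drat have medians of -0.07 and -0.15.

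Among 9187 probe sets with a single gene symbol and a mean signal of at least 500, the 5 whose log2 signal correlated most with that of Drat over the 9 arrays were those of CG11825 (Pearson r = 0.94), CG32512 (0.94), cbt (0.92), CG17834 (0.92) and GstE3 (0.91). These r values describe 9 arrays in 3 groups and were picked as the highest. The gene cbt encodes a zinc finger transcription factor and GstE3 a glutathione S-transferase. CG11825 had signals of 3155, 2248 and 2725 in NC, 5388, 6484 and 6787 in CH, and 3679, 4411 and 5166 in IH. Its CH arrays lay above its IH arrays and those above its NC arrays. GstE3 had means of 6035 in NC, 12112 in CH and 8826 in IH, cbt of 11589, 19167 and 15106, and CG32512 of 5068, 7587 and 6652. In each of these the mean was highest in CH and lowest in NC, as for Drat. Their choice by correlation with Drat favours this order. CG17834 had means of 1229, 1606 and 1599.

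**Figure D5:**
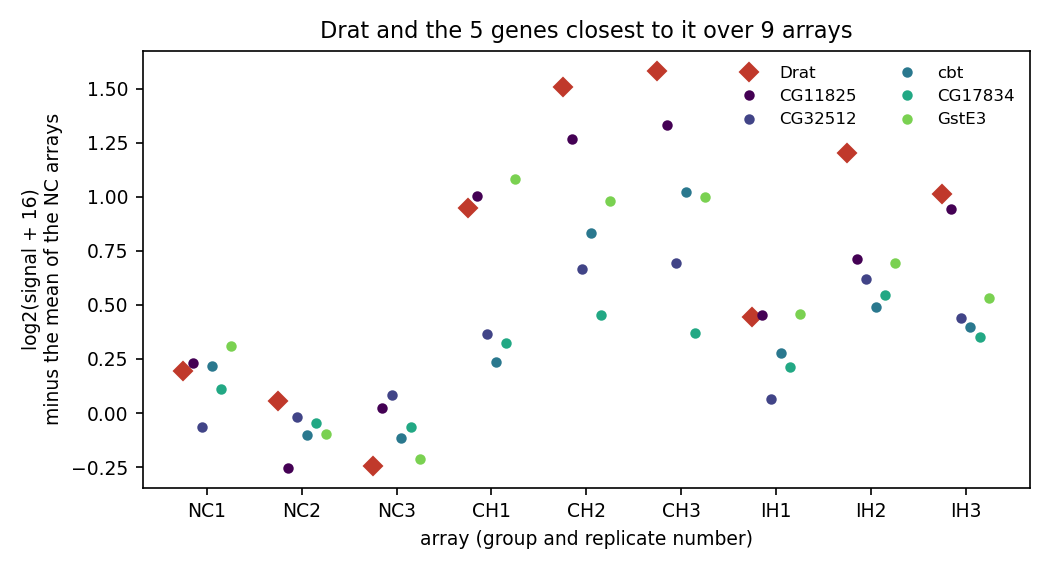
Log2(signal + 16) minus the mean of the NC arrays (vertical axis) on each of the 9 arrays (horizontal axis) for Drat (diamonds) and the 5 genes of highest correlation with it. All 6 have IH replicate 1 as the lowest IH array. CH replicate 1 is the lowest CH array for Drat and for each of the other genes except GstE3, where it is the highest.

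The median signal of an array was 594 to 823, with IH replicate 1 the lowest and IH replicate 2 the highest. Of the 8 lists of tissue markers, all held measured genes, and those of fat body and gut, where Adh is abundant, had 7 and 5 measured genes, each with a mean signal over 500. The mean log2 signal of the fat body markers was 15.3 to 15.5 in NC, 15.3 to 15.5 in CH and 15.3 to 15.6 in IH, and that of the gut markers 15.9 to 16.3, 15.9 to 16.5 and 15.7 to 16.6. Of the fat body markers 4 of 7 lay above NC in CH and 4 of 7 in IH, and of the gut markers 4 of 5 in CH and 5 of 5 in IH. The mean log2 signal of neuron markers was 9.11 to 9.88 in NC, 8.32 to 9.78 in CH and 8.90 to 9.93 in IH, with 0 of 4 genes above NC in either treatment, and brp and para among them had a mean signal under 500. For muscle markers it was 13.3 to 14.2 in NC, 13.5 to 14.0 in CH and 13.0 to 13.9 in IH, with 0 of 3 above NC in either, and for photoreceptor markers 14.6 to 15.2, 14.3 to 15.3 and 13.9 to 15.6, with 0 of 2. Testis markers had 12.2 to 12.3 in NC, 12.3 to 12.6 in CH and 11.7 to 12.8 in IH, with 5 of 5 above NC in CH and 2 of 5 in IH. Accessory gland markers had 14.0 to 14.1, 14.2 to 14.4 and 13.7 to 14.5, with 4 of 4 above NC in CH and 3 of 4 in IH. Ovary markers had 14.8 to 15.6, 15.5 to 15.6 and 15.4 to 15.8, with 5 of 5 above NC in both. The part of these shifts in the values of Drat and Sodh-1 was not tested.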

How the data were processed

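For normalization the authors used the affy package of Bioconductor, with options not given in the sources used here. Linear intensities were deposited, 1 value per probe set and array, and their mean after trimming 2% at each end is 2500 on every array. They hold no counts, so the number of arrays limits the precision. For this work log2(signal + 16) was taken for 18769 probe sets, 183 control probe sets being left out. The constant makes folds of dim probe sets smaller. Probe sets were named from the platform annotation through gene identifiers of RefSeq Release 6, and no sequences were used. Gene positions from RefSeq served only to place the members and count the genes between them.

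The 9 arrays entered 1 fit with a mean for each group (lmFit and eBayes of limma 3.58.1, R 4.3.3), and p-values were adjusted by Benjamini-Hochberg across the 18769 probe sets. The limits on fold and direction follow the methods, whose VAMPIRE software was not used. The fit was tested on simulated data with independent noise on each array. Those data hold no link between same-numbered arrays, so the test does not cover such a link. Members, gene lists and tests were chosen with earlier results of these data known. A gene of a list is given by its brightest probe set with a single symbol, and up to 3 genes of each list with the smallest unadjusted p are named, with every member and the 5 genes closest to Drat. Samples were grouped by their labels. The alternatives were a replicate block, 2 groups only, the dimmest 40% left out, another variance model, array weights, quantile normalization, median centring, 1 or 50 as the constant, leaving out each array, and, added after seeing the data, leaving out the 3 replicate 1 arrays.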

Additional observations from a re-analysis of the deposited data

How the results depend on the processing

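With 3 arrays a group, small differences were not detectable, and few of the larger ones were called. Before adjustment, limma gave p below 0.05 for 727 probe sets in CH and 589 in IH that also met the fold and direction limits. After adjustment, 4 were called in CH and 0 in IH. A count of 0 called among the members therefore does not show that they were unchanged. For CH against NC the 95% interval ran from a fold of 0.755 to 1.22 for Fdh, the narrowest of the members, and from 0.671 to 1.56 for the brighter Adh and Adhr probe set. The count of member probe sets called was 0 in every comparison under all 19 alternatives. At an unadjusted p with the limits, it ranged from 0 to 1 when an array was left out, for the dimmer Adh and Adhr probe set in IH against NC without IH replicate 2 (log2 fold change -0.64) and for Drat in CH against IH without CH replicate 1 (0.66). Drat stayed above NC throughout, by log2 fold changes of 1.22 to 1.64 in CH and 0.73 to 1.20 in IH, and its CH against IH difference was 0.24 to 0.66 (adjusted p = 0.143 to 1.00 from limma). Sodh-1 in IH was -0.47 to -0.36 (adjusted p = 0.0839 to 1.00) and the dimmer Adh and Adhr probe set -0.64 to -0.33 (adjusted p = 0.0690 to 1.00).

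The replicate numbers were not taken as pairs, since nothing in the labels ties same-numbered samples together. The correlation of deviations was positive in all 9 same-numbered pairs, from 0.0918 to 0.322, and over 0.1 in 7 of them. As a hint of pairing from the data, all 9 arrays were most like one of their own number. With the replicate block 0 members were called, and Drat in CH against IH kept 0.46 (adjusted p = 0.765), while the unadjusted p of Sodh-1 in CH against IH went from 0.0447 to 0.0508 (limma).

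Differences near 0 changed sign, and the cause was not tested. The brighter Adh and Adhr probe set turned to -0.15 in CH against IH with array weights, to -0.037 in CH and -0.064 in IH with quantile normalization, to -0.0090 in CH and -0.12 in CH against IH with median centring, and to -0.14 in CH against IH without the 3 replicate 1 arrays. Fdh turned to 0.0042 in CH against IH with quantile normalization and to 0.036 in IH with median centring. In CH against IH, median centring gave -0.054 for Sodh-2 and -0.093 for Aldh-III, and leaving out the 3 replicate 1 arrays gave -0.056 for Aldh-III, which had 0.0012 in IH there. With 1 array left out, the brighter Adh and Adhr probe set ranged from -0.078 to 0.17 in CH, -0.11 to 0.31 in IH and -0.27 to 0.15 between them, Fdh from -0.14 to 0.0044, -0.13 to 0.0082 and -0.050 to 0.050, Sodh-1 in CH from -0.17 to 0.052, Sodh-2 from -0.24 to 0.082 in CH and -0.061 to 0.26 between CH and IH, and Aldh-III from -0.29 to 0.026 in IH and -0.12 to 0.20 between CH and IH.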
